A study of Mus musculus with 8 samples.

Results

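Chromatin called open in fibroblasts, at 2 times of reprogramming and in embryonic stem cells was examined at 2003 mouse regions away from annotated promoters. Peaks of the 4 deposited ATAC-seq lists that lay within 400 bp of each other were merged into 101701 regions. The 2003 regions were chosen by 2 measured criteria, a peak in every one of the 4 lists and a distance of more than 5 kb from every GENCODE transcript start, so that their presence in all lists and their distance are the rule and not a result. The other 12068 of the 14071 regions with a peak in all 4 lists lay within 5 kb of a start site. The same lists held 62526 further distal regions with a peak in fewer than 4 lists, and 1779 of those had a peak in fibroblasts and in embryonic stem cells (ESCs) but in neither reprogramming list.

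ATAC-seq, in which a transposase cuts and tags open chromatin, was done on 2 libraries in each of 4 groups, and 1 peak list was deposited for each group. MEFs are fibroblasts of mid-gestation embryos and were untreated. The other fibroblasts were infected with pMXs retroviruses for Oct4, Sox2, Klf4 and c-Myc (OSKM), carried a FLAG control vector, and were collected at day 5 or day 10 in ESC medium with vitamin C; the labels call them intermediate cells and name no sort. All libraries were labelled wildtype, the study deleting the H3K27 demethylase gene Jmjd3 in other cells, and the strain was C57BL/6J-OG2, which bears an Oct4-GFP reporter, apart from ESC library 1, labelled C57Bl6J. The labels put ESCs on mitomycin-treated MEF feeders, whereas the study's methods place the OG2 ESCs of this assay on gelatin in 2i medium with LIF, so that it is unsure whether feeder chromatin is part of the ESC list. The MEF list had 56514 peaks and the ESC list 48486, with 36219 for day 5 and 35226 for day 10. With 1 list per group there was no spread between replicates, the read depth behind the lists is unknown, and every interval here covers counting error over regions only. All 10 fibroblast marker genes had a peak within 1 kb of a start site in MEFs, 9 did at each reprogramming time (all but Thy1) and 6 did in ESCs. All 10 pluripotency markers had such a peak in ESCs, 5 in MEFs, 4 at day 5 and 5 at day 10.

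Open chromatin far from promoters usually marks enhancers, which are bound by combinations of transcription factors and differ strongly between cell types, or insulators, where the zinc finger protein CTCF halts cohesin and anchors chromatin loops. A smaller share marks starts of transcripts that an annotation lacks, often in CpG islands, and genes of RNA polymerase III such as tRNA genes. KLF and SP proteins bind GC-rich boxes, AP-1 (FOS and JUN dimers) binds fibroblast enhancers, and OCT4 and SOX2 bind an octamer and a SOX site at enhancers of pluripotent cells.

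The sequences that the results turn on are given first, read 5′ to 3′ from the RefSeq copy of GRCm38 (mm10). Among the regions with a CTCF match and at most 10% repeat-masked sequence, 5 of the 6 with the highest score in their weakest list are shown, with 40 bases to each side of the match; the one left out ranked just above the Acadl region. A side names the nearest protein-coding gene. Capitals mark the match to the 12-letter CTCF consensus.
Znfx1 side, chr2:167072130-167072221, plus strand: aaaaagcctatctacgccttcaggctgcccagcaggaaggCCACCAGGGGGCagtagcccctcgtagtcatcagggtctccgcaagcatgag
Stard10 side, chr7:101310750-101310841, plus strand: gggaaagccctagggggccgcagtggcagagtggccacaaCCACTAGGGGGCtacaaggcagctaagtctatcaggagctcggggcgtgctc
Dlgap1 intron, chr17:70738366-70738457, plus strand: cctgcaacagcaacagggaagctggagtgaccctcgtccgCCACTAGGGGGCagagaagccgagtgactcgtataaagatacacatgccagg
Irx4 side, chr13:73160368-73160459, plus strand: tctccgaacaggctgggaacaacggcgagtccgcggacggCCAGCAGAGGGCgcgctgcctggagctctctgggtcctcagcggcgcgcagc
Acadl side, chr1:66895839-66895930, minus strand: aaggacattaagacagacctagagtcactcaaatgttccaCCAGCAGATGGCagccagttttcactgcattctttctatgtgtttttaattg

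For the AP-1, KLF and octamer matches, 2 regions each are shown by the same rule, with the match in capitals. The octamer pair is shown because its flanks are alike as well. Of the KLF regions, the one in Jarid2 had sequence like its own at 18 other places of the genome, and the Irf2 one at 0.
AP-1, Zfp869 side, chr8:69716971-69717057, plus strand: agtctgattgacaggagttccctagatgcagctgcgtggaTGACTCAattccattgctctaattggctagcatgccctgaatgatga
AP-1, Tpt1 side, chr14:75863889-75863975, plus strand: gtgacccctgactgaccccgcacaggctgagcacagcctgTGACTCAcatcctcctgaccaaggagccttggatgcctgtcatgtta
KLF, Jarid2 intron, chr13:44869657-44869744, plus strand: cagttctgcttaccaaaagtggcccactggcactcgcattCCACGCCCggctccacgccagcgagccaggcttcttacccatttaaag
KLF, Irf2 side, chr8:46686962-46687049, plus strand: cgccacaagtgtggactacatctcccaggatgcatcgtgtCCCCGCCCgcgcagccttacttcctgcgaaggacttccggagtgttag
octamer, Gm17655 intron, chr5:110058190-110058277, minus strand: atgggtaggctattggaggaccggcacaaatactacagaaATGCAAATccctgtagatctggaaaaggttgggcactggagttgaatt
octamer, Ptchd3 side, chr11:121847922-121848009, plus strand: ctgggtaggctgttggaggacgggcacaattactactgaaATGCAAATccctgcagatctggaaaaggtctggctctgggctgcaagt
The octamer sequences carried the same base at 74 of 88 positions (84.1%), although none of the 200 bp around either was repeat-masked.

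The tRNA genes below start in the 3 tRNA-bearing regions with the highest score in their weakest list, and the 3′ part of n-TAagc12 runs past the edge of its region. They are shown over their whole RefSeq extent, with capitals on GGTTCGA, the core of the internal B box bound by the RNA polymerase III factor TFIIIC, where it was found.
n-TAagc12, an alanine tRNA, chr13:23400795-23400867, minus strand: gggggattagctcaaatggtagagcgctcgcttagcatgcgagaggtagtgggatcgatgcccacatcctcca
n-TVaac2, a valine tRNA, chr13:23401073-23401145, minus strand: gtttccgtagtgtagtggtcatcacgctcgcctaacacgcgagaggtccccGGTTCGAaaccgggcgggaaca
n-TLtag1, a leucine tRNA, chr7:120835479-120835560, minus strand: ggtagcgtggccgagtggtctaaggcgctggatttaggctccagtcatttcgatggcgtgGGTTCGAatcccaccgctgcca
n-TEttc7, a glutamate tRNA, chr7:58399315-58399386, plus strand: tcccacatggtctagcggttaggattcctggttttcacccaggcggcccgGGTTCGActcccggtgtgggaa

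The 2003 regions were mostly single peaks. Their merged width had a median of 1133 bp (quartiles 850 and 1580, range 308 to 4045), and 1970 of them (98.4%) held exactly 1 peak from each list. In 1794 regions (89.6%) at least 1 bp was covered by all 4 lists, over a median stretch of 377 bp. In the other 209 (10.4%) no bp was covered by all 4 at once, although peaks of some of the lists can overlap there. The distance to the nearest start site had a median of 15202 bp, and 1398 regions lay more than 10 kb, 239 more than 50 kb and 46 more than 100 kb away. The farthest lay 261602 bp from a start site. Just inside the limit lay regions near Rbm28 (5011 bp), Nkx2-2os (5015 bp) and Ube2m (5017 bp). Just outside it lay regions at Tead4 (5000 bp), Gm38140 (4986 bp) and Pura (4974 bp). In the order MEFs, day 5, day 10, ESCs, which is kept throughout, the Ube2m region ranked at score percentiles of 18.6, 21.5, 2.02 and 67.3, and the Tead4 region at 36.8, 67.3, 72.4 and 76.7.

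Being called in every list did not mean being a strong peak. The score of each peak was ranked among all peaks of its list, and the regions had median percentiles of 62.1, 49.1, 53.9 and 55.4, highest in MEFs. Regions with a peak in all lists near a start site stood higher in each list (83.7, 67.3, 77.4 and 72.7), and the remaining distal regions stood lower (39.5, 42.2, 36.0 and 42.4). These ranks come from the peaks that chose the regions and are given as a description. Each rank is relative to the other peaks of its own list, and the lists differ in length. The median fold enrichment over background was 3.55, 3.74, 3.49 and 3.58 in the 4 lists. The median peak covered 805, 624, 740 and 646 bp, wider than the 594, 499.5, 530 and 521 bp of the remaining distal regions. Regions in MEFs and ESCs alone had median percentiles of 31.4 in MEFs and 35.2 in ESCs. Their median peaks covered 552 bp in MEFs and 497 bp in ESCs. The part that peak strength and width play in later comparisons with this class was not tested.

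**Figure D1:**
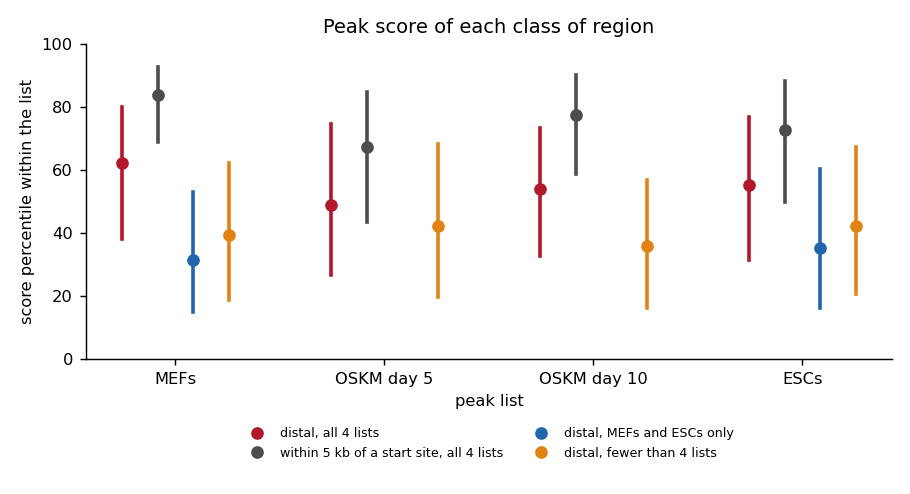
Score percentile within each peak list (vertical axis, 0 to 100) for 4 classes of region in each list (horizontal axis). Points are medians and bars span the quartiles; the class in MEFs and ESCs only is part of the class in fewer than 4 lists. Distal regions in all 4 lists sit between 49.1 and 62.1, below the promoter-near regions of every list.

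The rank of a region moved widely from list to list. The median range over the 4 lists was 42.4 percentile points. Only 439 regions (21.9%) stood above the 50th percentile in all 4 lists, 141 (7.04%) above the 75th and 31 (1.55%) above the 90th. The highest of the 4 percentiles fell in MEFs for 38.1% of regions, in ESCs for 29.0%, at day 5 for 18.7% and at day 10 for 14.2%. The lowest fell in ESCs for 30.5% and at day 5 for 30.0%. Each of the 2003 regions has the same merged span and sequence in every list, though its called peaks differ in width. Across them, Spearman's rho of the percentiles was 0.674 between day 5 and day 10, 0.443 between MEFs and day 10, and 0.380 between MEFs and day 5. It was 0.317 between day 5 and ESCs, 0.313 between day 10 and ESCs, and 0.194 between MEFs and ESCs.

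The strongest distal regions in all lists were copies of repeated sequence that is not masked in the genome. By the highest rank in the weakest list, the first was an exon of Lars2, the mitochondrial leucyl-tRNA synthetase (chr9:123461788-123462197), with fold enrichments of 15.3, 18.1, 17.1 and 17.99. An intron of Gphn, which encodes the synaptic scaffold gephyrin (chr12:78350869-78351176), had 14.8, 16.8, 18.002 and 17.8. These 2 regions shared 244 bp at 97.5% identity. A region between genes (chr3:5860341-5860824) with folds of 13.3, 14.3, 14.2 and 14.4 shared 288 bp at 97.2% identity with an intron of the calcium-dependent kinase gene Camk1d (chr2:5379044-5379383), which had 12.7, 14.4, 16.2 and 13.4. An intron of Cmss1 (chr16:57391226-57391695) with 10.9, 14.1, 14.1 and 12.4 shared 240 bp at 98.3% identity with an intron of Jarid2, a partner of the H3K27 methyltransferase complex (chr13:44869567-44869988), which had 10.1, 13.4, 13.0 and 12.2. All 6 of these regions had their lowest fold in MEFs. Each of the 6 had sequence of at least 100 bp at 90% identity or more at 9 to 18 other places of the genome, and none matched the mitochondrial genome.

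The seventh (chr17:17004655-17005693, folds of 7.53, 6.33, 6.12 and 6.43) had 70 such other places, and the eighth (chr15:75085572-75087047, folds of 5.54, 6.05, 6.35 and 7.92) had 3. The next 4 regions that share no sequence with another of the 2003, chosen after these values were seen, had no other place. Among those 4, a region in the noncoding gene Gm16675 on the Irf2 side (chr8:46686693-46687314) had folds of 7.44, 7.33, 5.92 and 7.22, and one between genes (chr15:85634236-85635285) had 5.91, 5.69, 4.69 and 6.95. The latter lay 10798 bp from the nearest start, of the lincRNA Gm49539, and 51763 bp from the nearest protein-coding start, of the signalling gene Wnt7b, and it held a predicted RefSeq start of D130051D11Rik. The part that reads from several copies play in the folds of the first 8 was not tested. Over all 2003 regions, 21 (1.05%) shared at least 100 bp at 95% identity or more with another, and 8 did so through sequence that was mostly unmasked. Among regions over 50% repeat-masked the highest ranked were on the Y chromosome (Y:258924-259462, folds of 6.82, 10.6, 11.3 and 12.4), between genes on the Sertad2 side (chr11:20475823-20478042) and in an exon of Aspa (chr11:73318221-73319178).

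**Figure D2:**
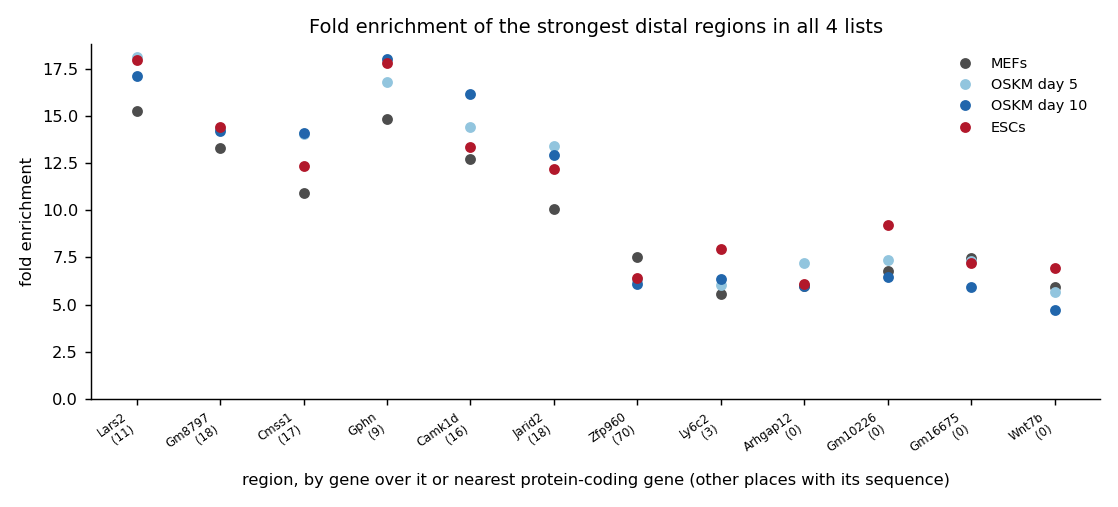
Fold enrichment (vertical axis, linear from 0) of the 12 highest ranked distal regions in each of the 4 lists (coloured points), labelled by the gene over the region or the nearest protein-coding gene. Numbers in parentheses count other places of the genome with the same sequence; the 6 regions at the left, with folds of 10.1 to 18.1, have 9 to 18, and the 4 at the right have 0.

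A second annotation, which the rule did not use, placed transcript starts inside part of the regions. RefSeq, looked at after the values of the regions were known, had a start inside 155 of the 2003 (7.74%, 95% Wilson interval 6.65 to 8.99), against 1.10% of the other distal regions. The difference of 6.64 percentage points (95% Newcombe interval 5.55 to 7.90) had the same sign on 20 of 20 chromosomes with enough regions. Against the regions found in MEFs and ESCs alone, 3.15% of which had such a start, it was 4.59 points (3.17 to 6.03; higher on 18 of 19). Over all 101701 regions 15.3% held a RefSeq start. Of the 155, 23 held a curated transcript and 132 only predicted ones or genes of other kinds, and by type 81 held a long noncoding RNA, 49 a tRNA and 33 an mRNA. Within 5 kb of a RefSeq start lay 378 of the regions (18.9%), against 7.64% of other distal regions and 11.4% of those in MEFs and ESCs alone. The other 1625 of the 2003 were distal by both annotations. The region with an AP-1 match on the Zfp869 side, ranked 99.96, 99.88, 99.94 and 93.9, held a RefSeq start of Zfp869 itself, a zinc finger gene.

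tRNA genes, which RNA polymerase III transcribes, lay in these regions more often than in other distal regions. RefSeq placed 214 tRNA genes more than 5 kb from a GENCODE start. Of these, 112 lay in a merged region, and 79 (36.9% of the 214) lay in the 2003 regions, 10 in promoter-near regions of all 4 lists and 23 in the 62526 other distal regions. In the count of regions, 49 of 2003 held the start of a tRNA gene (2.45%, 1.86 to 3.22), against 0.0288% of other distal regions, 0.605% of promoter-near regions in all lists, 0.112% of regions in MEFs and ESCs alone and 0.151% of all regions. The difference from other distal regions was 2.42 points (1.83 to 3.19) and was positive on 15 of 20 chromosomes. The core of the B box was found in 0.549% of the 200 bp windows (flanks 0.499%; all regions 0.337%), and 8 of these 11 windows belonged to regions with a tRNA gene.

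By median, regions with tRNA genes ranked highest in MEFs, as did the 2003 regions together. The tRNA regions had median percentiles of 75.5, 59.1, 52.8 and 52.8 in the 4 lists, with ranges that overlap widely. The 1848 regions without a RefSeq start inside had 61.5, 48.4, 53.9 and 54.8. The region with n-TAagc12 and n-TVaac2 (chr13:23400829-23402727) ranked at 98.5, 97.2, 94.3 and 89.7. The region with n-TLtag1 (chr7:120834844-120836494) ranked at 91.1, 94.8, 88.6 and 89.98, and the one with n-TEttc7 (chr7:58398069-58399778), 118384 bp from any GENCODE start, at 88.6, 95.6, 93.1 and 91.1. These 3 were chosen by rank in their weakest list, so a high rank in every list follows from the choice. At the other end, the region with n-TKctt29, a lysine tRNA (chr19:12004632-12006407), ranked at 53.1, 34.8, 38.9 and 0.177. The region with the most called sequence of all 2003, near Shf (chr2:122375468-122378732, with 3265, 1934, 3114 and 1707 bp), held 3 histidine tRNA genes. Trim27, a ubiquitin ligase gene beside a tRNA cluster of chromosome 13, had 6 of the regions within 50 kb, the most of any protein-coding gene, followed by the SMAD inhibitor gene Ski with 5.

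Windows of 200 bp, centred on the widest peak called in a region, were searched on both strands for 17 motifs. CTCF matches were found in 83 of the 2003 regions (4.14%, 3.36 to 5.11), against 0.300% of windows 1 kb to either side, 1.05% of other distal regions, 0.539% of promoter-near regions in all lists and 1.12% of all regions. The difference from other distal regions was 3.09 points (2.30 to 4.06) and was positive on 19 of 20 chromosomes. The regions in MEFs and ESCs alone had 3.32%, and the difference from these, 0.827 points, had an interval of -0.398 to 2.04, so that it was not detectable at these counts. With 1 mismatch allowed, 11.6% of the 2003 regions had a match (10.3 to 13.1, flanks 3.05%), against 3.89% of other distal regions. The regions in MEFs and ESCs alone then had 8.83% (7.59 to 10.2), an interval below that of the 2003. CTCF matches were centred: 25 of them lay in the 50 bp bin just before the midpoint (1.25% of regions) and 1 in the bin at the far left edge.

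KLF matches (CCACACCC, CCACGCCC, CCCCACCC or CCCCGCCC) were found in 314 regions (15.7%, 14.2 to 17.3), against 8.09% in the flanks, 7.94% of other distal regions, 24.5% of promoter-near regions in all lists and 11.1% of all regions. The regions exceeded the other distal regions by 7.74 points (6.20 to 9.41; 19 of 20 chromosomes), and by 3.00 points when those were weighted to the same GC content. They exceeded regions in MEFs and ESCs alone by 7.75 points (5.71 to 9.78; 19 of 19). SP matches (GGGGCGGGG, whose reverse strand contains a KLF string) were found in 57 regions (2.85%; all regions 1.95%), all of which also had a KLF match.

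AP-1 matches (TGACTCA or TGAGTCA) were found in 157 regions (7.84%, 6.74 to 9.10), above the 3.69% of the flanks. This was below the 13.6% of other distal regions, with a difference of -5.72 points (-6.85 to -4.43; lower on 20 of 20 chromosomes), and below the 11.9% of regions in MEFs and ESCs alone. All regions had 11.4%. Distal regions in MEFs only had 24.98% and those in ESCs only 4.04%. The direction depended on the window: with whole merged regions the 2003 exceeded other distal regions by 5.29 points, and with the midpoint of the widest ESC peak by 3.13 points, while with the midpoint of the widest MEF peak the difference was -13.5 points.

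**Figure D3:**
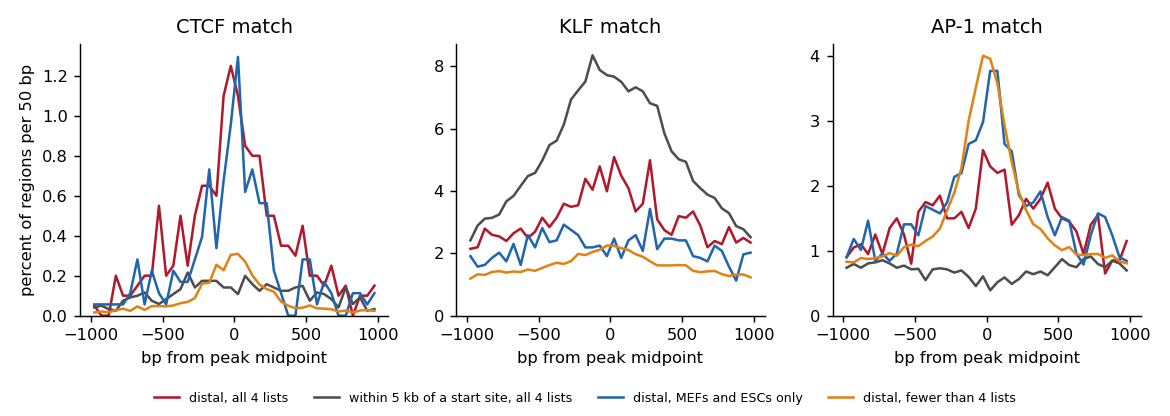
Percent of regions with a CTCF, KLF or AP-1 match centred in each 50 bp bin (vertical axes, linear, each panel with its own scale) against distance from the midpoint of the widest peak in bp (horizontal axes), for 4 classes of region. CTCF matches of the distal regions in all 4 lists peak at 1.25%, those of AP-1 at 2.55%.

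In the 200 bp window, octamer, SOX, TEAD, RUNX and ESRRB matches had lower shares than at other distal regions. The octamer (ATGCAAAT) was found in 1.85% of the regions (flanks 1.32%; other distal 2.59%; all regions 2.19%) and a SOX site (CCATTGT or CCTTTGT) in 9.34% (flanks 7.36%; other distal 11.4%; all regions 10.1%). TEAD sites (ACATTCCA, ACATTCCT, GCATTCCA or GCATTCCT) were found in 5.34% (other distal 7.88%; all regions 6.83%) and RUNX sites (TGTGGTTA or TGTGGTTT) in 2.30% (3.66%; 3.11%). ESRRB sites (TCAAGGTCA) were found in 0.499% (0.734%; 0.682%), a difference whose interval of -0.473 to 0.187 points includes 0. The differences of the octamer, SOX, TEAD and RUNX shares from other distal regions changed sign with whole regions. Those of the octamer and SOX also did with the midpoint of the widest MEF peak, where only regions with a peak in MEFs are compared. That of the octamer also changed sign with GC weighting, which gave -0.459 points for SOX, -1.84 for TEAD and -0.580 for RUNX.

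The remaining motifs, most of them motifs of promoters, had low shares. E-box, ETS, NRF1, CRE and BANP shares exceeded those of other distal regions by 1.28, 0.599, 0.443, 0.325 and 0.135 points. Their intervals lay above 0, and they were higher on 14, 13, 10, 9 and 3 of 20 chromosomes. Intervals for NFY, REST and YY1 include 0. Weighting other distal regions to the same GC content gave 0.474 (E-box), 0.342 (ETS), 0.248 (NRF1), 0.289 (CRE) and 0.132 points (BANP). It gave -0.198 (NFY), -0.592 (REST) and -0.734 points (YY1). The REST and YY1 values lay outside their main intervals of -0.489 to 0.328 and -0.211 to 0.189. An E-box (CACGTG) was found in 3.74% (other distal 2.46%; all regions 2.93%) and an NFY site (CCAATCA or CCAATGG) in 4.14% (4.10%; 4.35%). The ETS site (ACCGGAAG or GCCGGAAG) was found in 0.999% (0.400%; 0.964%) and the NRF1 site (GCGCATGC) in 0.699% (0.256%; 0.475%). A partial site of the neuronal repressor REST (TCAGCACC) was found in 0.799% (0.971%; 1.05%) and the CRE (TGACGTCA) in 0.499% (0.174%; 0.315%). The YY1 site (AAGATGGCG) was found in 3 regions (0.150%, against 0.253% of other distal and 0.378% of all regions). The BANP site (TCTCGCGA) was also found in 3 regions (0.150%, against 0.0144% of other distal and 0.120% of all regions). No match to any of the 17 motifs was found in 1082 regions (54.0%), and 249 (12.4%) had matches to 2 or more.

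CpG-island-like sequence (500 bp with at least 50% GC and an observed over expected CpG ratio of at least 0.6) was more frequent than at other distal regions. It was found at 206 of the 2003 regions (10.3%, 9.03 to 11.7) and at 0.715% of other distal regions, 2.47% of regions in MEFs and ESCs alone, 70.2% of promoter-near regions in all lists and 11.1% of all regions. The difference from other distal regions was 9.57 points (8.31 to 10.98; 20 of 20 chromosomes). A RefSeq start lay inside 33 of these 206 (16.02%, 11.6 to 21.6) and within 5 kb of 60 (29.1%). The CpG-island-like regions among other distal regions had 7.16% and 18.8%, and the 44 in MEFs and ESCs alone had 20.5% (11.2 to 34.5) and 27.3%. Sequence was richer in GC than at other distal regions (mean 50.4% ± 8.70 against 44.4% ± 7.42, SD over regions) and less often over 50% repeat-masked (5.49% against 11.7%).

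**Figure D4:**
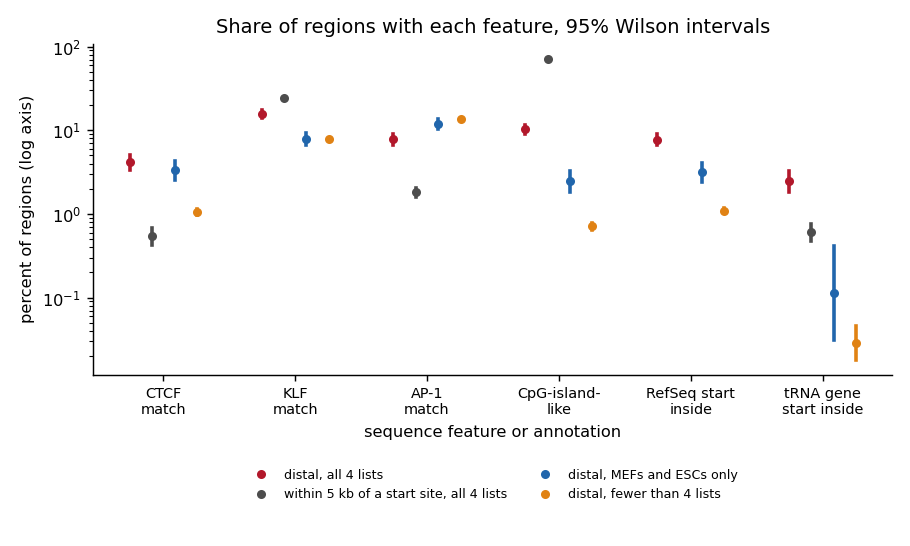
Percent of regions (vertical axis, logarithmic) with each sequence feature or annotation (horizontal axis) in 4 classes of region; bars are 95% Wilson intervals and cover counting error only. The distal regions in all 4 lists hold a tRNA gene start at 2.45% against 0.0288% of distal regions in fewer lists, and an AP-1 match at 7.84% against 13.6%; promoter-near regions, which were chosen by start sites, have no point for RefSeq starts.

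The sequence classes ranked differently across the lists. These ranks come from the peaks that chose the regions, and each class is part of the 2003. The shares are a description, their intervals cover counting error only, and no class was tested. CpG-island-like regions ranked at medians of 76.5, 58.1, 67.3 and 65.5, and 32.0% of them (26.0 to 38.7) ranked higher in ESCs than in MEFs, against 43.1% of all 2003. Regions with an AP-1 match ranked at 72.4, 51.5, 55.9 and 50.03, and 34.4% of them (27.4 to 42.1) ranked higher in ESCs. Regions with a CTCF match ranked at 53.1, 39.4, 48.3 and 55.4, and 50.6% of them (40.1 to 61.1) ranked higher in ESCs. The 37 regions with an octamer ranked at 46.4, 59.1, 55.9 and 60.2, and 59.5% (43.5 to 73.7) ranked higher in ESCs. The octamer class was the only one of these 4 with its lowest median in MEFs. A stretch covered by all 4 lists was present in 97.6% of the regions with a CTCF match and in 99.0% of the CpG-island-like regions, against 89.6% of all.

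**Figure D5:**
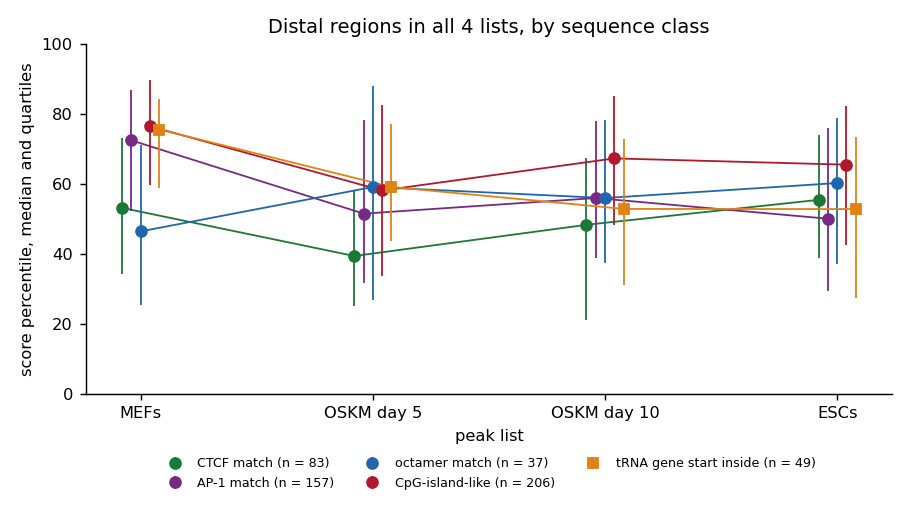
Score percentile (vertical axis, 0 to 100; points are medians and bars the quartiles) in each peak list (horizontal axis) for 5 classes of the distal regions in all 4 lists. The AP-1, CpG-island-like and tRNA classes are highest in MEFs, at 72.4 to 76.5, and the octamer class is lowest there, at 46.4. All these distal regions together are also highest in MEFs, at 62.1.

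Of the named CTCF regions, the one on the side of Znfx1, an antiviral helicase gene (chr2:167071509-167072736), ranked at 95.5, 97.4, 86.1 and 95.97. The region on the side of Stard10, a lipid transfer gene (chr7:101310379-101311145), ranked at 98.97, 83.5, 93.9 and 90.9. Both were chosen by rank in their weakest list, so a high rank in every list follows from the choice. The region on the side of Acadl, which encodes a fatty acid oxidation enzyme (chr1:66895261-66896912), ranked at 57.2, 90.5, 86.1 and 55.4, higher at both reprogramming times than at either end. The region on the side of the heart homeobox gene Irx4 (chr13:73160016-73160699) ranked at 68.8, 96.9, 68.0 and 90.4.

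By GENCODE, 1137 of the regions (56.8%) lay between genes, 778 (38.8%) in introns and 88 (4.39%) in exons, against 49.9%, 47.3% and 2.83% of other distal regions. The nearest start site belonged to a protein-coding gene for 1056 regions (52.7%), to a processed pseudogene for 281 (14.0%) and to a lincRNA for 262 (13.1%). Another of the regions lay within 50 kb for 387 (19.3%).

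Gene lists were read against the 11.2% of all protein-coding genes (2453 of 21911) with one of the regions within 50 kb of a start site. Among pluripotency genes 3 of 20 had one, at Nanog, Klf4 and Sall1. All 3 regions held a KLF match, as did 15.7% of the 2003. A KLF match also lay in a region at genes of other lists, such as Cdh1, Col1a2, Pds5a and Fos. The Nanog region (chr6:122669119-122670483, 37006 bp from the gene) ranked at 68.3, 50.3, 66.6 and 5.60, lowest in ESCs. Nanog is a core factor of pluripotency. The Klf4 region (chr4:55514500-55515363, 16407 bp away) ranked at 77.7, 94.1, 80.4 and 82.3. The region at Sall1, a zinc finger partner of the pluripotency network (chr8:89015285-89016103), ranked at 11.7, 26.8, 40.4 and 76.7, so that its rank was lowest in MEFs and highest in ESCs.

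Among epithelial genes 8 of 16 had a region, at Cdh1, Epcam, Krt8, Krt18, Cldn3, Cldn4, Cldn6 and Crb3, with Krt8 and Krt18 sharing 1 region and Cldn3 and Cldn4 sharing another. The Cdh1 region (chr8:106561018-106561756, 41595 bp from the gene of the epithelial cadherin) held a KLF and an AP-1 match and ranked at 77.7, 51.5, 47.02 and 76.7. The region 33093 bp from the polarity gene Crb3 (chr17:57095601-57096961) ranked at 84.5, 98.1, 98.0 and 99.8 and held the start of a predicted RefSeq transcript. Among fibroblast genes 3 of 22 had a region. At Col1a2, a collagen gene, it ranked at 93.2 in MEFs and at 6.19, 18.2 and 20.8 in the other lists, and no bp was covered by all 4. At Twist1 the ranks were 23.7, 14.6, 12.4 and 38.9, and at Fn1, the fibronectin gene, 45.3, 83.9, 72.9 and 83.5.

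Among AP-1 and serum response genes 5 of 13 had a region, at Fos, Fosb, Egr1, Klf6 and Ier2. Fos, a subunit of AP-1, had 3, and the one 17884 bp away (chr12:85454925-85456006) was CpG-island-like and ranked at 99.7, 97.3, 98.0 and 89.98. A second at 11018 bp ranked at 28.5, 0.642, 6.73 and 1.01, low in each list outside MEFs. The Klf6 region ranked at 91.8, 39.4, 31.2 and 52.8. Among genes of CTCF and cohesin 4 of 13 had one, at Ctcf, Smc3, Pds5a and Zfp143, and the Zfp143 region, with an AP-1 match, ranked at 94.5, 78.1, 40.4 and 11.8. Among H3K27 enzyme genes only Eed, of 6, had one, ranked at 63.3, 67.3, 55.9 and 88.3. None of 19 imprinted genes and none of 39 Hox genes had one. Neighbouring genes share regions, and no list was tested for enrichment.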

How the data were processed

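Peak positions, scores, fold (ratio) values and −log10 q-values were used as deposited by the authors, as 1 list for each group of 2 libraries. The authors mapped reads to mm10 with Bowtie2 (2.2.0 in the submitters' processing notes), kept uniquely mapped reads of sufficient quality and removed mitochondrial reads. The ATAC-seq peak caller and the way libraries were combined are not given in the sources used here. Unique mapping can lower or raise the signal of repeated sequence. The −log10 q-values started at 1.01, and the score, used by rank within a list, was 10 times the −log10 q-value without decimals.

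Peaks were merged within 400 bp, and distances were taken to 132629 distinct transcript starts of GENCODE release 21. Sequence came from RefSeq's GRCm38 with its soft-masking. RefSeq transcript starts and tRNA genes on GRCm38 came from its annotation. Shared sequence was found with blastn 2.17.0 (at least 100 bp; 95% identity between regions, 90% against the genome and the mitochondrial genome). Shares have 95% Wilson intervals and differences 95% Newcombe intervals, and directions were counted over chromosomes with at least 30 regions of each class. No p-value was computed. Scripts (Python 3.11.15, numpy 2.4.6, pandas 2.3.3) were tested on simulated data. The regions, motifs and gene lists were chosen with earlier results of these data known, and the searches for RefSeq starts, tRNA genes and shared sequence after the values were seen. Named regions were the 8 with the highest score percentile in their weakest list (at most 50% repeat-masked) and the 3 above that, 6 with a CTCF match and 2 each with AP-1, KLF and octamer matches by the same rank (at most 10% repeat-masked; the fifth of the 6 is not shown), the ones with most peak bp and farthest away, 3 on each side of 5 kb, and every listed gene within 50 kb, apart from 1 list that is not reported here.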

Additional observations from a re-analysis of the deposited data

How the results depend on the processing

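Of 271 alternative values, 177 stayed within the main value's interval, within 1 SD for median percentiles or within 1.5 times the main count. The number of regions was 239 with a distance of 50 kb, 434 with the higher-scoring 50% of each list and 1185 with equally long lists; the other alternatives gave 1398 to 2758. CTCF matches were found in 13.7% with whole regions, 7.94% in 500 bp and 11.6% with 1 mismatch. KLF matches were found in 53.2%, in 30.6% in 500 bp and in 19.1% of regions from higher-scoring peaks. AP-1 matches were found in 34.7%, in 16.2% in 500 bp and in 9.48% at the stretch covered by all lists. CpG-island-like sequence was found at 8.73% of regions over 10 kb from a start. Against other distal regions, whole regions gave differences of 11.4 (CTCF), 31.8 (KLF), 5.29 (AP-1, reversed), 2.09 (octamer), 12.1 (SOX), 7.03 (TEAD) and 4.05 points (RUNX), the last 4 reversed. GC weighting gave 3.00 (KLF), 0.474 (E-box), -0.459 (SOX), -0.580 (RUNX), -0.592 (REST) and -0.734 (YY1), each outside the main interval. It gave 0.00389 (octamer, reversed), and within the main interval -0.198 (NFY, reversed), 2.65 (CTCF) and -4.84 (AP-1). The MEF midpoint gave -13.5 (AP-1), 0.276 (octamer) and 2.05 (SOX), the last 2 reversed, and the ESC midpoint 3.13 (AP-1, reversed). Only regions with a peak in that list have such a midpoint, so the other distal regions compared also differ from those of the main value. By protein-coding genes alone 62.2% lay between genes and 33.8% in introns. Longer windows hold more matches by construction; the other causes were not tested. Leaving out regions that share sequence moved no motif share beyond its interval. No paired analysis was possible because each group had 1 list, and for the same reason no replicate could be left out.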
